A study of Xenopus laevis with 12 samples.

Results

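The change from stage 14 to stage 17 of the Nieuwkoop and Faber series was described in neural crest tissue of Xenopus laevis embryos that had received a mismatch control morpholino, a synthetic antisense oligomer with altered bases. The comparison uses 6 of the 12 samples of the study, 3 mismatch samples at stage 14 (neural plate) and 3 at stage 17 (neural folds), chosen by their treatment and stage labels. All embryos were wild-type and carried 60 ng of morpholino injected at the 4-cell stage, so neither group is uninjected tissue. The other 6 samples carried an miR-196a morpholino at the same dose and stages. The batch label repeats the stage, so a batch effect and a developmental change cannot be told apart. The labels do not say whether samples of a group came from separate clutches, and the errors then measure only the spread between these samples, pooled over both arms of a stage.

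The values are mismatch arm means, rebuilt from the authors' comparison tables of the arms at each stage, which give no value per sample. The mismatch arm was taken as the denominator of the deposited fold changes. Neither headers nor labels name the numerator, and the study's title, which speaks of miR-196a repressing immature neural ectoderm programmes, does not settle it. Every mismatch arm value and call below rests on this reading, as does each direction that differs between the arms. Counts or ratios in the other arm are given beside each gene group. Levels are CPM, here the mismatch arm mean of a gene times 1e+06 over the sum of all mismatch arm means, and are compared only within a gene. Log2 ratios are stage 17 over stage 14 with 1 standard error (SE). A gene was called when its adjusted p (Benjamini-Hochberg over all tested genes, two-sided Wald test) was under 0.05 and its log2 ratio was at least 1 in size.

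As background, the neural crest arises at the border between neural plate and epidermis. Border genes such as pax3, zic1 and msx1 come on first, followed by the specifiers snai2, foxd3, sox9, twist1 and sox10, and the cells then leave the neural folds and migrate. In Xenopus, factors shared with the pluripotent blastula, such as the pou5f3 genes, are also known from this tissue.

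Of 19252 genes in either table, 17510 were in both, and 15157 had a mean normalised count of 10 or more in both. The genes nearest this limit were emx1.L, just inside with means of 10.02 and 21.55, and MGC145260.S, just outside with 9.9956 and 66.48. Genes in only 1 table numbered 696 at stage 14 and 1046 at stage 17, of which 43 and 170 reached the limit, and they were not analysed here. Mismatch means summed to 1.68e+07 normalised counts at stage 14 and to 1.43e+07 at stage 17, and depth per library is unknown. The floor of an arm was set at 3 normalised counts, and a mean no higher than that counts as at the floor. The median SE of a log2 ratio was 0.46, so a gene of median error needed a ratio of about 1.25 to be called.

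The labelled tissue was checked against cell type markers. The 10 copies of snai2, sox10, foxd3, sox9 and twist1 were all above the floor at both stages, and their summed level was 1513 CPM at stage 14 and 4308 at stage 17. Markers of the adjoining ectoderm were also present. The 9 copies of epidermal markers (krt70, krt12.4, itln1, tp63 and grhl3) summed to 7376 and 10354 CPM, of which krt70.S made up 4796 and 5356. The 7 copies of neural plate markers (sox2, sox3, zic2 and irx3) summed to 1119 and 181 CPM. These neural plate genes are reported again below among immature neural and border genes, so this check and those falls share values. The cement gland markers ag1 and agr2 summed to 408 and 221 CPM and preplacodal markers to 45.05 and 80.29. No copy of the hatching gland marker he was found. Markers of muscle and mesoderm were at 5.87 and 5.44 CPM, with 1 of 4 copies at the floor at stage 14 and 3 of 5 at stage 17. Endoderm markers summed to 14.6 and 19.5 CPM, of which a2m.S made up 14.4 and 19.5. At the floor were 2 of 3 endoderm copies at stage 14 and 1 of 2 at stage 17. The 1 blood marker found was at 0.44 CPM at stage 14. No gene under the 3 notochord marker symbols was found at either stage. In the other arm crest markers summed to 163 CPM at stage 14 and 2030 at stage 17. Epidermal markers summed there to 1317 and 3232 CPM, and neural plate markers to 1707 and 1291. Cement gland markers were at 86.3 and 125 CPM, preplacodal markers at 25.7 and 39.3 and endoderm markers at 36.8 and 23.4. The levels in this check thus also rest on which arm is read as mismatch. In bulk tissue, fewer cells of a type and less RNA per cell cannot be told apart, and the part of other cell types in the results below was not tested.

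Across the transcriptome, the crest gene sox10 and other crest specifiers led the rises, and pluripotency, hox and cdx genes were among the largest falls. Of 15146 genes with a ratio, 1552 (10.2%) were called, of which 878 rose (5.80%) and 674 fell (4.45%). The median log2 ratio was 0.18 over all tested genes, 1.70 over those that rose and -1.85 over those that fell. Scaling the stages by the median ratio, which shifts every value by 0.18, gave 602 rises and 944 falls among 1546 called genes, so 56.6% of calls were rises under the first scale and 38.9% under the second. Averaging both arms, which needs no choice of arm, gave 779 rises and 342 falls. In the other arm 525 genes (3.47%) were called, 451 rising (2.98%) and 74 falling (0.488%). Calls in the same direction in both arms numbered 170 among the risen genes and 46 among the fallen, and 6 genes were called in opposite directions. Of the 878 risen genes 788 had a ratio above 0 in the other arm, with a median of 0.79, and of the 674 fallen genes 567 had one below 0, with a median of -0.60.

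**Figure D1:**
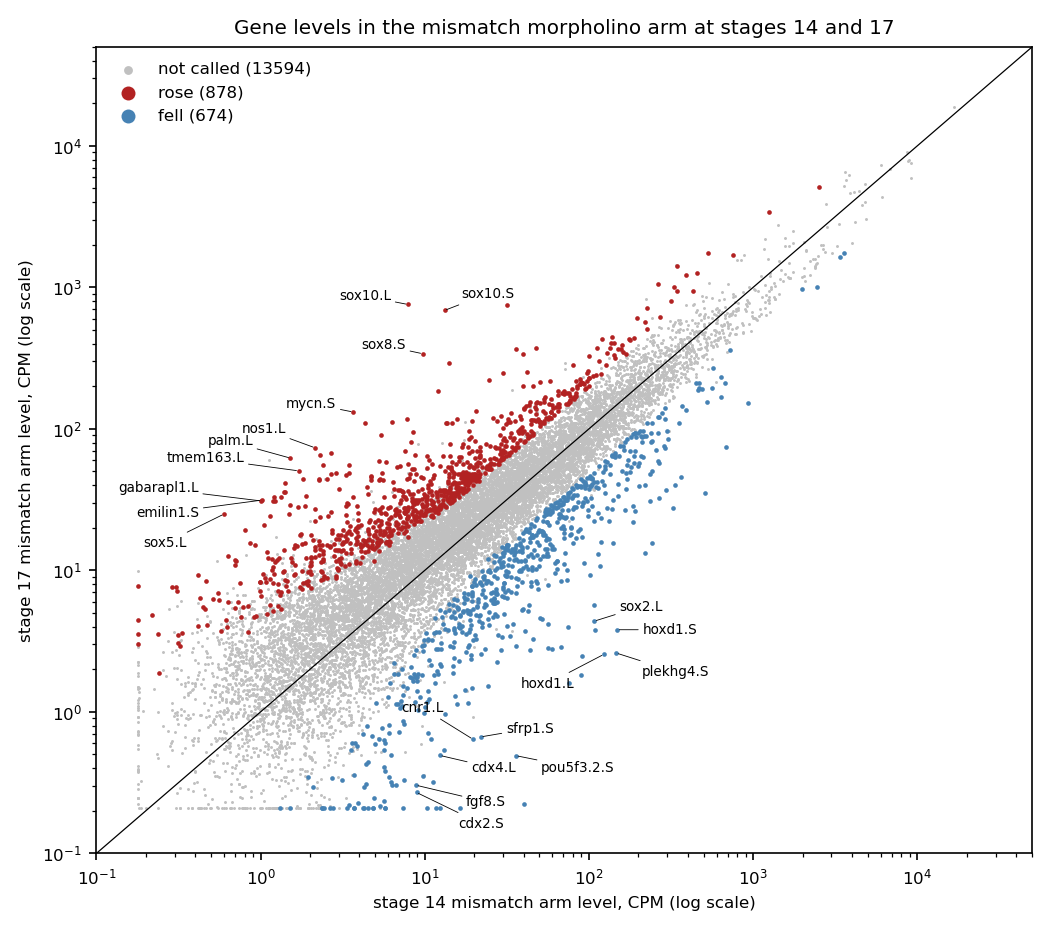
Each point is a tested gene, with its mismatch arm level at stage 14 on the x axis and at stage 17 on the y axis, both in CPM on log scales. Red points rose (878), blue points fell (674), the line marks equal levels, and arm means at or under the floor are drawn at it. Names mark the 10 largest rises and falls above the floor that kept their direction in the other arm and under median scaling. Symbols starting with LOC were left out of that choice. The genes sox10 and sox8 lie far above the line and plekhg4, hoxd1 and sox2 far below it.

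Genes whose symbols start with LOC were left out of the ranking by size. The 10 largest rises were taken among called genes above the floor that kept their direction in the other arm and under median scaling. They held 5 copies of crest specifiers. The crest master regulator sox10.L went from 7.89 to 758 CPM, a log2 ratio of 6.59 ± 0.81, and sox10.S from 13.2 to 688 (5.7 ± 0.77). Its SoxE relative sox8.S went from 9.70 to 340 (5.13 ± 0.81). The SoxD gene sox5.L rose from 0.596 to 25.0 (5.39 ± 1.42). The proto-oncogene mycn.S rose from 3.65 to 132 (5.17 ± 0.80). The other 5 were palm.L, for a membrane-shape protein, nos1.L, the neuronal nitric oxide synthase, emilin1.S, an elastic-fibre glycoprotein, gabarapl1.L, an autophagy protein, and tmem163.L, a zinc transporter. Their log2 ratios ran from 4.89 ± 1.21 (tmem163.L) to 5.35 ± 0.86 (palm.L), and each started at or below 2.14 CPM. The same direction was called in the other arm for sox10.L, sox10.S, sox8.S, mycn.S and tmem163.L, and not for sox5.L, palm.L, nos1.L, emilin1.S and gabarapl1.L.

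The 10 largest falls, taken by the same rule, held 4 copies of hox and cdx genes, from hoxd1, cdx2 and cdx4. The Oct4-related gene pou5f3.2.S fell from 36.0 to 0.490 CPM (-6.20 ± 0.85). The guanine nucleotide exchange factor gene plekhg4.S fell from 147 to 2.60 (-5.82 ± 0.44). The retinoic acid-responsive gene hoxd1 fell in both copies, hoxd1.L from 123 to 2.55 (-5.59 ± 0.86) and hoxd1.S from 149 to 3.81 (-5.29 ± 0.47). The caudal genes cdx2.S and cdx4.L, which pattern the posterior axis, fell from 8.92 to 0.269 CPM (-5.05 ± 1.51) and from 12.39 to 0.492 (-4.65 ± 1.59). The others were the secreted Wnt antagonist sfrp1.S (-5.04 ± 0.70), the cannabinoid receptor cnr1.L (-4.93 ± 1.01), the growth factor fgf8.S (-4.87 ± 0.83) and the neural plate gene sox2.L (-4.62 ± 0.68). None of these 10 was called in the other arm, with log2 ratios from -3.97 (cdx2.S) to -0.46 (sox2.L).

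Crest specifiers rose where they were called. All 27 listed copies were tested, 12 rose and none fell, with a median log2 ratio of 2.04 against 0.18 over all genes, of which 5.80% rose, and their summed level was 3585 CPM at stage 14 and 8432 at stage 17. Among those that rose, twist1.L, a helix-loop-helix gene of crest migration, went from 14.0 to 290 CPM (4.38 ± 0.72) and twist1.S from 36.1 to 366 (3.34 ± 0.66). The copy snai2.S, for a repressor of epithelial genes, rose from 7.63 to 69.8 (3.19 ± 0.66). The ETS factor ets1.L rose from 24.6 to 222 (3.18 ± 0.72). As folds, these rises run from 9.05 for ets1.L to 96.1 for sox10.L.

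The copies of foxd3 and sox9 and the .L copy of snai2 were present at stage 14 and were not called. The copy snai2.L stood at 541 CPM at stage 14 and 1071 at stage 17 (0.98 ± 0.41, adjusted p = 0.0924). For the forkhead gene foxd3, the .L copy was at 133 and 318 (1.26 ± 1.04) and the .S copy at 205 and 181 (-0.18 ± 0.85). For sox9, which acts with snai2 in specification, the .L copy was at 62.6 and 92.9 (0.57 ± 0.41) and the .S copy at 492 and 473 (-0.06 ± 0.38). The other arm held 21 rising specifiers, with a median of 3.43, and snai2.L (3.13), sox9.L (3.18), sox9.S (2.30), foxd3.L (4.89) and foxd3.S (3.40) were among them. In both arms sox10 and twist1 rose, and snai2.L, sox9 and foxd3 were called as rising in the arm taken as miR-196a and not in the mismatch arm. The difference between the arms passed the test for snai2.L and both sox9 copies, and was not past it for foxd3.

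**Figure D2:**
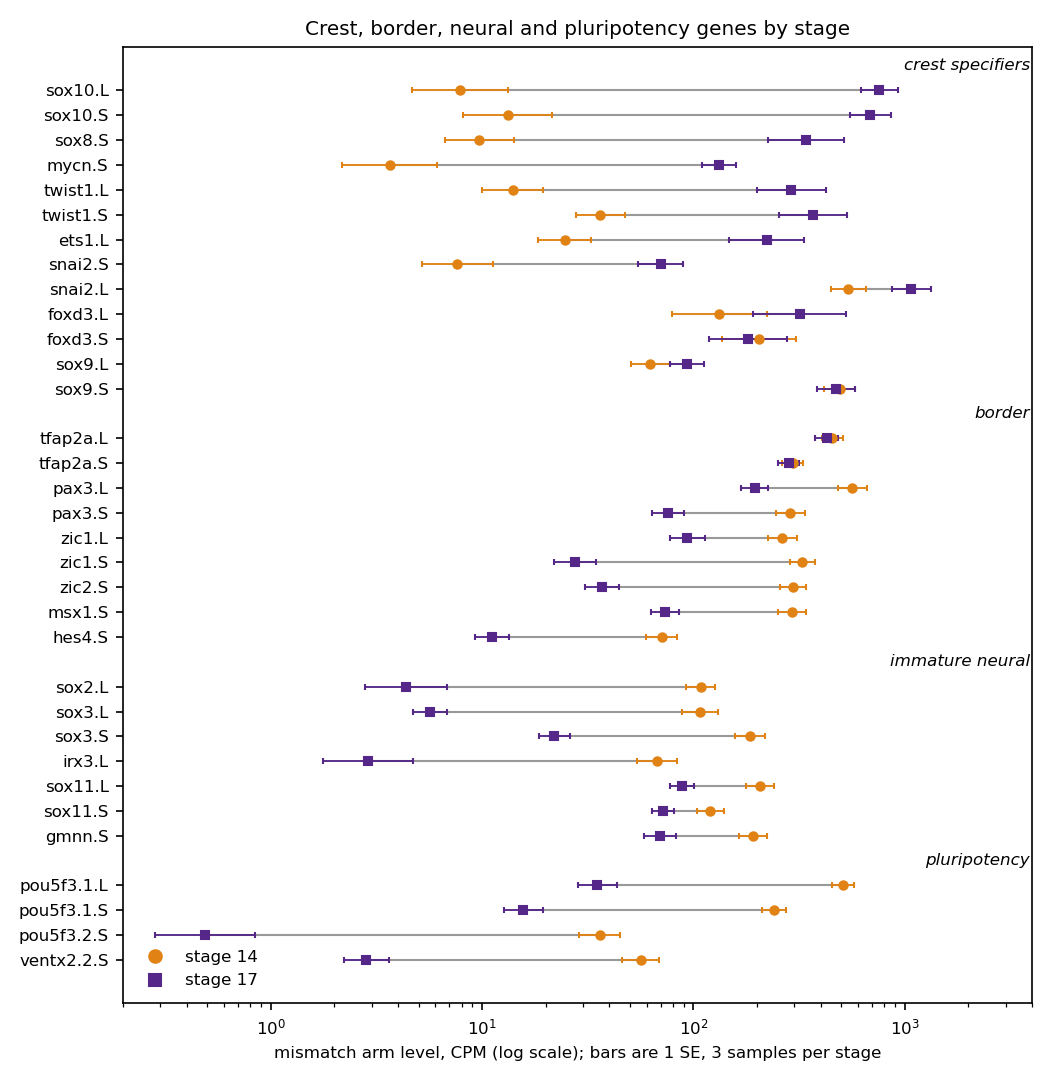
Mismatch arm levels in CPM (log scale) at stage 14 (circles) and stage 17 (squares) for crest specifiers, border, immature neural and pluripotency genes. Bars are 1 SE on the log2 scale for the 3 mismatch samples per stage, from a spread pooled over both arms of that stage. The sox10 copies move from 7.89 and 13.2 to 758 and 688 CPM, snai2.L, foxd3, sox9 and tfap2a have overlapping or nearby levels at both stages, and zic1, zic2.S, pax3, sox3 and pou5f3.1 move to the left.

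Called neural plate border genes all fell. Of 30 listed copies 27 were tested, 15 fell, against 4.45% of all tested genes, and none rose, with a median log2 ratio of -1.36 and a summed level of 5512 CPM at stage 14 and 2493 at stage 17. The paired-box gene pax3.L, a border gene needed for crest induction, fell from 565 to 195 CPM (-1.54 ± 0.31), and pax3.S from 288 to 75.7 (-1.93 ± 0.34). The zinc finger gene zic1.S fell from 327 to 27.6 (-3.57 ± 0.38) and zic1.L from 263 to 93.4 (-1.49 ± 0.35). Its relative zic2.S fell from 295 to 36.8 (-3.005 ± 0.34). The homeobox gene msx1.S fell from 292 to 73.2 (-1.99 ± 0.31), and the repressor hes4.S from 70.6 to 11.1 (-2.67 ± 0.37).

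The border gene tfap2a was not called. It is also active in epidermis, and its copy tfap2a.L was at 454 and 427 CPM (-0.09 ± 0.25), and tfap2a.S at 295 and 283 (-0.06 ± 0.23). No border gene was called in either direction in the other arm, where the median was 0.14, so the fall of the border list rests on which arm is read as mismatch.

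Called immature neural and pluripotency genes all fell as well. Of the 29 listed copies of immature neural genes 27 were tested, 17 fell and none rose. For 3 of the tested copies the mismatch arm mean was at the floor at 1 stage, so their ratios are bounds. The fallen share was 63.0%, against 4.45% of all tested genes, and the median was -1.88 with summed levels of 2929 and 807 CPM. Of these copies 4 are also on the border list. The SoxB1 genes sox2 and sox3, which keep neural progenitors undifferentiated, fell in the copies analysed here. The level of sox2.L went from 108 to 4.38 CPM, sox3.L from 107 to 5.66 (-4.24 ± 0.39) and sox3.S from 184 to 22.0 (-3.07 ± 0.34). The Iroquois gene irx3.L fell from 67.2 to 2.89 (-4.54 ± 0.78). Smaller falls were those of sox11.L, a SoxC gene of early neurons, from 206 to 88.4 (-1.22 ± 0.29), and of gmnn.S, for the replication inhibitor geminin, from 192 to 69.6 (-1.46 ± 0.33). The copy sox11.S was at 120 and 71.6 (-0.75 ± 0.27, adjusted p = 0.0486) and missed the limit on size.

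Of 23 listed copies of blastula pluripotency genes 22 were tested, 10 fell and none rose, with a median of -2.24. For 4 of the tested copies the mismatch arm mean was at the floor at 1 stage, so their ratios are bounds. Falls made up 45.5% of the tested copies, against 4.45% of all tested genes. The Oct4-related gene pou5f3.1.L fell from 510 to 35.1 CPM (-3.86 ± 0.35) and pou5f3.1.S from 241 to 15.7 (-3.94 ± 0.36). The copy pou5f3.2.L stood at 11.7 CPM at stage 14 and at the floor at stage 17, and was at least 55.9-fold lower. The Nanog-like gene ventx2.2.S fell from 56.2 to 2.84 (-4.31 ± 0.45). Both pou5f3.1 copies also fell in the other arm, by 1.49 and 1.24 on the log2 scale. There 4 pluripotency genes and 1 immature neural gene fell, with list medians of -0.17 and -0.46.

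Regional genes of the midbrain, hindbrain and trunk fell in nearly all calls, and no forebrain gene was called. Of 35 midbrain and hindbrain copies 31 were tested, 13 fell (41.9%, against 4.45% of all tested genes) and 1 rose, with a median of -2.13. The TALE homeobox gene meis3.L, a hindbrain inducer in Xenopus, fell from 364 to 46.0 CPM (-2.98 ± 0.31). The gene that rose was egr2.L, a factor of hindbrain segments, from 5.51 to 48.9 (3.15 ± 1.04). Among the same genes in the other arm 6 rose and 1 fell, with a median of 0.06, and egr2.L was among those that rose (3.54). Of 27 forebrain and eye field copies 14 were tested and none was called, with a median of -0.74, and in the other arm 1 of them fell and the median was -1.17.

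Of 43 hox copies 20 were tested, 6 fell (30%, against 4.45% of all tested genes) and 1 rose (5%, against 5.80%). The median was -0.35, and it was -1.74 over the 13 with a mean count of 50 or more. Besides hoxd1, falls were called for hoxb4.S from 9.76 to 0.351 CPM (-4.80 ± 0.93) and hoxb1.S from 212 to 63.3 (-1.74 ± 0.35). The gene that rose was hoxc3.L, from 2.54 to 44.2 (4.12 ± 1.27), and it rose in the other arm as well, by at least 7.39 from an arm mean at the floor. There 4 hox genes rose and none fell, with a median of 1.91.

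**Figure D3:**
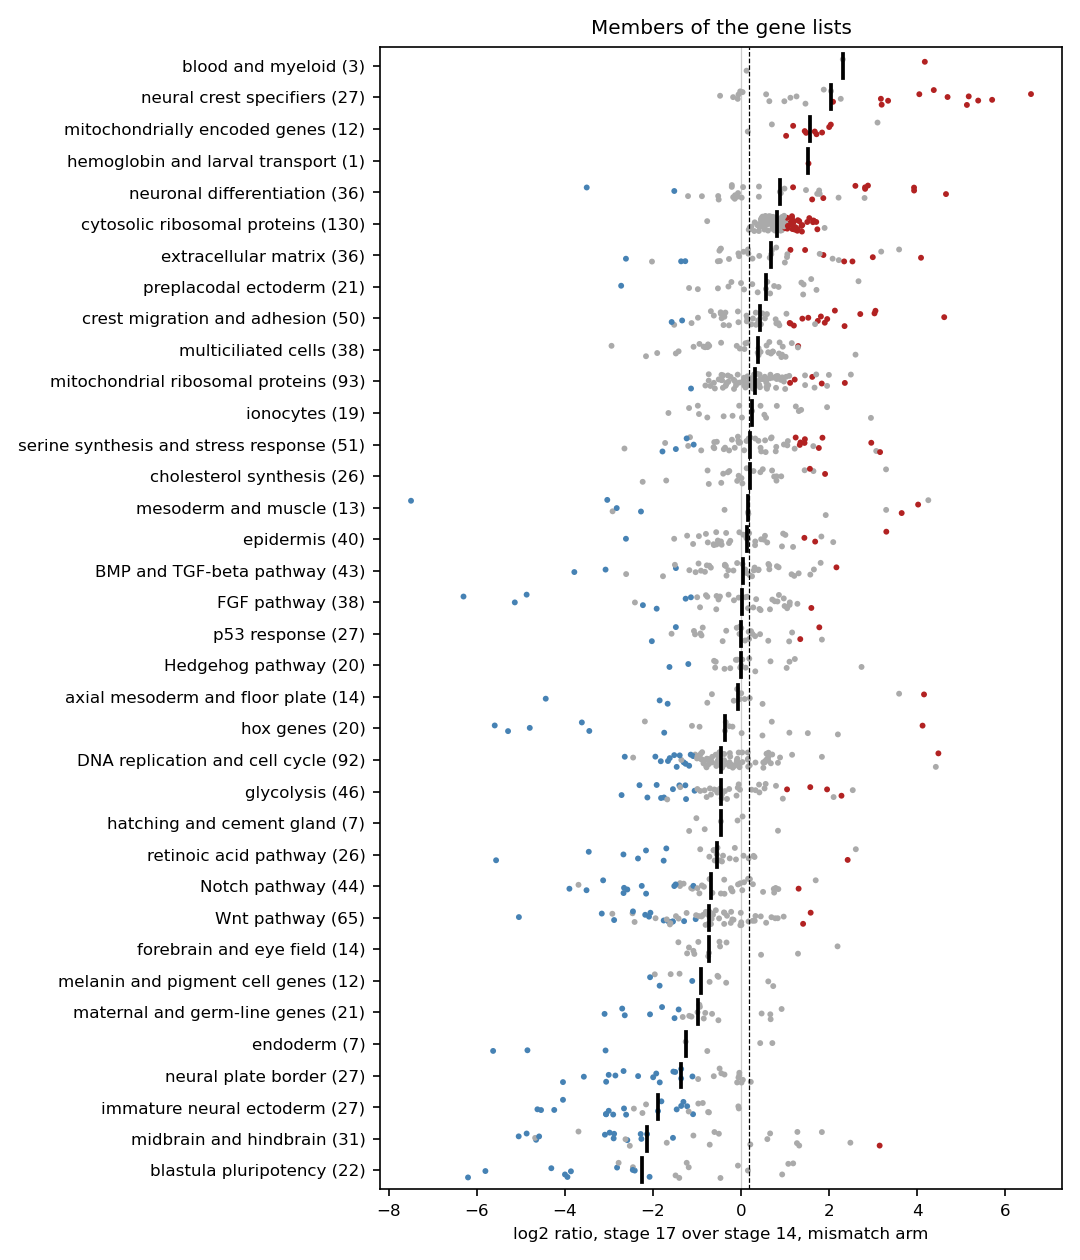
Each row is a gene list with its number of tested genes in brackets, and each point a member's log2 ratio of stage 17 over stage 14 in the mismatch arm, red where it rose, blue where it fell and grey where it was not called. Black bars are list medians and the dashed line is the median of all tested genes, 0.18; crest specifiers (2.04) lie near the top and border (-1.36), immature neural (-1.88), midbrain and hindbrain (-2.13) and pluripotency (-2.24) genes at the bottom.

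Signalling pathways held more falls than rises. The called share of tested copies was 23.1% for Wnt, 30.8% for retinoic acid, 21.1% for FGF and 27.3% for Notch genes, against 10.2% of all tested genes. In the Wnt pathway 65 of 81 copies were tested, 13 fell and 2 rose, with a median of -0.72. The receptor gene fzd10.S fell from 140 to 15.7 CPM (-3.16 ± 0.38), the ligand wnt8a.L from 64.1 to 11.7 (-2.45 ± 0.49) and the feedback target axin2.L from 525 to 156 (-1.76 ± 0.33). The transcription factor lef1.L was 1 of the rises, from 6.42 to 19.2 (1.58 ± 0.50). The other arm held 1 rising Wnt gene and no falling one, with a median of -0.15.

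Retinoic acid genes that degrade, reduce or bind the signal or its precursor were among the falls. Of 37 copies of the pathway 26 were tested, 7 fell and 1 rose, with a median of -0.54. The retinaldehyde reductase dhrs3.L fell from 76.0 to 1.61 CPM (-5.56 ± 0.54), the retinoic acid-degrading enzyme cyp26a1.S from 102 to 9.30 (-3.46 ± 0.43) and the binding protein crabp2.L from 201 to 39.7 (-2.34 ± 0.33). The synthesis enzyme aldh1a2.L rose from 2.002 to 10.7 (2.42 ± 0.71). There were 2 rises and no falls on this list in the other arm, and dhrs3.L, cyp26a1.S and crabp2.L stood at 0.08, -0.59 and -0.26. There aldh1a2.L stood at -0.56 and was not called, nor was it in the average of both arms (0.90 ± 0.55).

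In the FGF pathway 38 of 43 copies were tested, 7 fell and 1 rose, with a median of 0.02. The ligand fgf3.L fell from 11.3 to 0.321 CPM (-5.14 ± 0.91) and the receptor fgfr4.L from 633 to 168 (-1.92 ± 0.25), while the FGF-responsive membrane protein flrt3.L rose from 53.6 to 162 (1.60 ± 0.40). In the Notch pathway 44 of 49 copies were tested, 11 fell and 1 rose, with a median of -0.68. The target hes1.L fell from 29.7 to 3.39 (-3.13 ± 0.37), the ligand dll1.L from 42.1 to 14.7 (-1.52 ± 0.42) and the modifier lfng.L from 56.5 to 12.7 (-2.16 ± 0.36), and the receptor notch2.L rose from 17.5 to 43.2 (1.31 ± 0.43), a call lost under median scaling. The other arm had 3 rising FGF genes and 1 falling, and 4 Notch genes rose and none fell, with flrt3.L (2.07) and notch2.L (2.03) rising in both.

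BMP and Hedgehog genes were called at about the share of all tested genes, 10.2%, with 9.30% of BMP and TGF-beta copies and 2 of 20 Hedgehog copies. Of 58 BMP and TGF-beta copies 43 were tested, 3 fell and 1 rose, with a median of 0.04. The ligand bmp4.L fell from 30.1 to 10.8 CPM (-1.48 ± 0.47) and the secreted antagonist cer1.S from 23.3 to 2.77 (-3.08 ± 0.62), and the receptor tgfbr1.S rose from 2.81 to 12.6 (2.17 ± 0.58). Of 24 Hedgehog copies 20 were tested, 2 fell and none rose, with a median of -0.01, and the co-receptor cdon.S fell from 171 to 55.5 (-1.62 ± 0.33). For the other arm, 1 BMP gene rose and 1 fell, and 2 Hedgehog genes rose and none fell.

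Genes of crest migration and adhesion held more rises than falls. Of 59 copies 50 were tested, 15 rose (30%, against 5.80% of all tested genes) and 2 fell (4%, against 4.45%). The median was 0.43, with summed levels of 7386 and 12250 CPM. The chemokine receptor cxcr4.S, through which crest cells sense their attractant in Xenopus, rose from 29.9 to 249 CPM (3.05 ± 0.51). The growth factor receptor pdgfra.L rose from 39.6 to 202 (2.35 ± 0.40) and the semaphorin receptor nrp2.S from 13.5 to 110 (3.03 ± 0.55). The guidance ligand sema3d.L rose from 1.34 to 32.8 (4.62 ± 1.02) and the membrane metalloprotease mmp14.L from 58.2 to 218 (1.90 ± 0.39). The falls were those of the neural adhesion gene, ncam1.S from 113 to 38.0 (-1.57 ± 0.35) and ncam1.L from 55.7 to 22.0 (-1.34 ± 0.34). E-cadherin, the epithelial adhesion protein, was not called, with cdh1.S at 527 and 389 (-0.44 ± 0.31) and cdh1.L at 8.22 and 2.87 (-1.52 ± 1.04). Rises in the other arm numbered 15, with no fall and a median of 0.87, and cxcr4.S (2.68), pdgfra.L (2.95), sema3d.L (4.26) and mmp14.L (1.58) were among them. Under median scaling 9 of these genes rose and 2 fell.

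Of 62 extracellular matrix copies 36 were tested, 7 rose (19.4%, against 5.80% of all tested genes) and 3 fell (8.33%, against 4.45%). The median was 0.67. The basement membrane gene nid2.S rose from 6.78 to 53.9 CPM (2.99 ± 0.54), the hyaluronan link protein hapln3.S from 2.89 to 49.1 (4.09 ± 0.86) and the laminin chain lamc1.S from 58.9 to 162 (1.46 ± 0.31). The hyaluronan synthase has1.S fell from 927 to 151 (-2.61 ± 0.62). Of the matrix genes in the other arm 5 rose and 1 fell, and hapln3.S was among those that rose (6.27).

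Neuronal differentiation genes held more rises than falls, and proneural neurog2 was not called. Of 55 copies 36 were tested, 10 rose (27.8%, against 5.80% of all tested genes) and 2 fell (5.56%, against 4.45%). The median was 0.89. Over the 25 with a mean count of 50 or more, 5 rose and 1 fell and the median was 0.0475. The neuronal filament gene prph.S rose from 2.68 to 67.5 CPM (4.66 ± 0.78), the tubulin gene tubb2b.S from 7.76 to 118 (3.93 ± 0.50) and the differentiation factor neurod1.L from 1.88 to 28.6 (3.93 ± 1.06). The Notch ligand dll1.L was 1 of the falls. The proneural gene neurog2.L was at 11.1 and 7.73 (-0.52 ± 0.84) and neurog2.S at 7.23 and 3.14 (-1.20 ± 0.68). A total of 8 neuronal genes rose in the other arm and none fell, with prph.S, tubb2b.S and neurod1.L among them.

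No list of the non-neural ectoderm had a called share above the 10.2% of all tested genes. Of 44 epidermal copies 40 were tested, 3 rose and 1 fell, with a median of 0.13. The basal keratinocyte factor tp63.L rose from 4.69 to 46.2 CPM (3.3 ± 0.81), krt19.L, a keratin, from 14.1 to 45.4 (1.68 ± 0.44) and pkp3.S, a desmosome protein, from 16.7 to 45.2 (1.44 ± 0.49), and has1.S, described above, fell. Under median scaling pkp3.S was not called. The secreted lectin itln1.L of mucous skin cells was at 338 and 1442 CPM (2.09 ± 0.77, adjusted p = 0.0517). Of 43 copies for multiciliated cells 38 were tested and 1 rose, the ciliary gene hydin.S, from 25.1 to 61.7 (1.30 ± 0.43), with a median of 0.39, and under median scaling it was not called. Of 32 preplacodal copies 21 were tested and 1 fell, the forkhead gene foxi4.2.S, from 7.27 to 1.102 (-2.72 ± 0.96), with a median of 0.57. None of 19 tested ionocyte copies (of 21) or of 7 tested gland copies (of 9) was called, with medians of 0.25 and -0.46. For the other arm, 8 epidermal, 5 multiciliated, 3 preplacodal, 1 gland and no ionocyte genes rose and none of these lists held a fall, with tp63.L (at least 7.27, from an arm mean at the floor) and itln1.L (4.95) among those that rose.

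Few genes listed for mesoderm, axial tissue, endoderm and blood were tested, and several of those named below also have roles outside those tissues. The called share of the tested genes was 46.2%, 28.6%, 42.9% and 33.3%, against 10.2% of all tested genes. Of 41 mesoderm and muscle copies 13 were tested, 4 fell and 2 rose, with a median of 0.16, which was -2.82 over the 3 with a mean count of 50 or more. The LIM homeobox gene lhx1.L, also known from kidney and neural tube, fell from 40.4 to 0.224 CPM (-7.49 ± 2.14), and mef2c.S, also known from crest derivatives in mouse, rose from 2.99 to 37.6 (3.65 ± 0.80). The stage 17 mean of lhx1.L was 3.22 normalised counts, near the floor. The gene lhx1.L was not called in the other arm (1.64) or in the average of both arms (-0.89 ± 1.94). Of 25 axial mesoderm and floor plate copies 14 were tested, 3 fell and 1 rose, with a median of -0.06, and the guidance gene ntn1.L rose from 2.69 to 48.02 (4.16 ± 0.59). Of 15 endoderm copies 7 were tested, 3 fell and none rose, with a median of -1.26, which was -3.96 over the 4 with a mean count of 50 or more. The fall of cer1.S is given above. Of 21 blood and myeloid copies 3 were tested, with a median of 2.31, and aplnr.S, the apelin receptor of vessels, rose from 0.861 to 15.6 (4.17 ± 0.85). On the mesoderm list 2 genes rose in the other arm, mef2c.S among them, and no gene of the other 3 lists was called. The single tested gene of hemoglobin and larval transport, of 10 copies, was apoc1.L, which rose from 141 to 407 CPM (1.52 ± 0.36) and was not called in the other arm (0.86).

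Called maternal transcripts fell, as did 13 of 14 called cell cycle genes. Of 39 maternal and germ-line copies 21 were tested, 7 fell (33.3%, against 4.45% of all tested genes) and none rose. The median was -0.99. The oocyte linker histone h1-8.S fell from 61.8 to 9.52 CPM (-2.70 ± 0.49), the egg coat gene zp2.L from 50.04 to 11.9 (-2.07 ± 0.37) and the zygote arrest gene zar1.S from 7.34 to 0.858 (-3.10 ± 0.66). Of these genes 3 fell in the other arm, h1-8.S (-1.97) among them, and the median was -0.98. Of 94 DNA replication and cell cycle copies 92 were tested, 13 fell (14.1%, against 4.45%) and 1 rose (1.09%, against 5.80%). The median was -0.44. The cyclin ccne2.S fell from 86.4 to 30.2 (-1.52 ± 0.28) and the phosphatase cdc25b.L from 78.0 to 20.2 (-1.95 ± 0.39), and the early-embryo cyclin ccna1.L rose from 0.415 to 9.29 (4.48 ± 1.53). In the other arm 1 cell cycle gene fell and none rose, with a median of -0.07.

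Cytosolic ribosomal protein genes and mitochondrially encoded genes held rises and no falls. All 130 cytosolic ribosomal protein copies in both tables were tested, of 132 in either. Of these 33 rose (25.4%, against 5.80% of all tested genes) and none fell. The median was 0.81, with a ratio above 0 in 129 copies. The small-subunit gene rps9 rose from 113 to 374 CPM (1.73 ± 0.26), rplp0.L of the stalk from 226 to 714 (1.66 ± 0.27) and rpl10a.S from 391.7 to 1225 (1.64 ± 0.28). Their share of all mismatch arm counts was 2.34% at stage 14 and 4.18% at stage 17. Under median scaling 18 rose, and in the other arm 4 rose with a median of 0.48.

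Of 12 tested genes encoded by the mitochondrial genome 9 rose (75%, against 5.80% of all tested genes) and none fell, with a median of 1.58. The complex I subunits ND5 and ND4 rose from 535 to 1756 (1.72 ± 0.30) and from 342 to 1406 (2.04 ± 0.36). The oxidase subunit COX1 was not called, at 16847 and 18746 (0.15 ± 0.31). Their share of all counts was 2.64% and 4.01% in the mismatch arm and 7.08% and 5.198% in the other, where none was called and the median was -0.22. Of 94 copies for mitochondrial ribosomal proteins, encoded in the nucleus, 93 were tested, 5 rose (5.38%, near the 5.80% of all tested genes) and 1 fell, with a median of 0.31. The rises included mrpl46.L, from 5.51 to 28.2 (2.36 ± 0.55), and the fall was that of mrps9.L, from 37.4 to 17.0 (-1.14 ± 0.38). Median scaling left 2 rises on that list, and the other arm held 1.

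Glycolytic genes mostly fell where called. Of 52 copies 46 were tested, 11 fell (23.9%, against 4.45% of all tested genes) and 4 rose (8.70%, against 5.80%). The median was -0.46. The bifunctional regulator pfkfb3.L fell from 185 to 28.3 CPM (-2.71 ± 0.33) and enolase eno1.S from 54.97 to 16.4 (-1.75 ± 0.37). In the other arm 1 fell and 3 rose. For serine synthesis and the stress response 51 of 55 copies were tested, 9 rose (17.6%, against 5.80%) and 4 fell (7.84%, against 4.45%). The median was 0.21. The endoplasmic reticulum chaperone hspa5.S rose from 345 to 944 (1.45 ± 0.31) and the amino acid transporter slc7a5.L from 1.66 to 14.8 (3.16 ± 0.53), and in the other arm 1 gene of the list rose and none fell.

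The p53 list held 2 rises and 2 falls among 27 of 28 copies tested, 7.41% each way against 5.80% and 4.45% of all tested genes, with a median of 0.01. These included the antiproliferative gene btg2.S rising from 29.8 to 102 CPM (1.78 ± 0.37) and the damage-response gene gadd45a.L falling from 27.6 to 6.78 (-2.02 ± 0.42). There were also 2 rises in the other arm, btg2.S among them, and 1 fall. Of 37 cholesterol synthesis copies 26 were tested, 2 rose (7.69%) and none fell, with a median of 0.21, and in the other arm 1 rose and the median was -0.06. These were the regulator srebf1.S, from 3.81 to 11.3 (1.57 ± 0.50), and the synthase hmgcs1.L, from 3.03 to 11.4 (1.91 ± 0.69), and median scaling, under which hmgcs1.L was not called, gave 1 rise and 1 fall. Of 15 melanin and pigment cell copies 12 were tested, 3 fell (25%, against 4.45% of all tested genes) and none rose. The median was -0.91. The melanosome genes pmel.S, from 126 to 35.1 (-1.85 ± 0.35), and tyrp1.L, from 16.3 to 3.90 (-2.07 ± 0.52), were among the falls. Such transcripts are also stored in the frog egg. In the other arm 1 pigment gene fell and none rose.

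**Figure D4:**
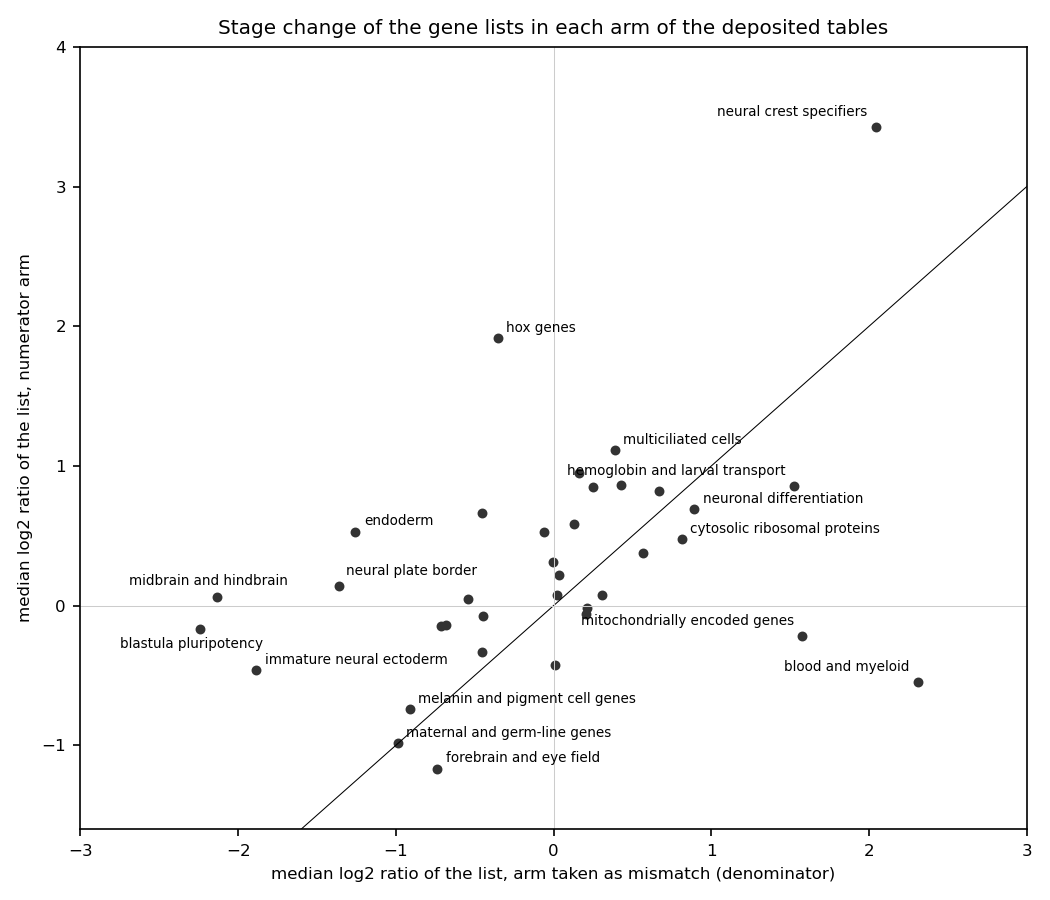
Each point is a gene list, with its median log2 ratio of stage 17 over stage 14 in the arm taken as mismatch on the x axis and in the other arm on the y axis, and the line marks equal medians. Crest specifiers have medians of 2.04 and 3.43, hox genes -0.35 and 1.91, and border, hindbrain and pluripotency genes lie below -1 on the x axis and between -0.17 and 0.14 on the y axis.

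Xenopus laevis is allotetraploid, and most genes have homeologs, a .L copy on the longer and a .S copy on the shorter chromosome of a pair. Both copies were tested for 4695 pairs, and 68.6% had ratios of the same sign. Across pairs, which are not independent replicates and share libraries, Pearson's r was 0.52 and Spearman's rank correlation 0.47. In 176 pairs both copies were called, 78 pairs rising, 93 falling and 5 in opposite directions. In 663 pairs 1 copy was called, and the other had a ratio of the same sign in 542. The called share was 10.8% of .L and 9.34% of .S copies. The opposite pairs were abcg2, cd81, fkbp4, me2 and pdk4. For the tetraspanin cd81, the .L copy rose from 7.60 to 33.3 CPM (2.13 ± 0.59) and the .S copy fell from 91.8 to 30.4 (-1.59 ± 0.37). For the kinase pdk4, which limits pyruvate oxidation, pdk4.L rose from 16.0 to 47.7 (1.57 ± 0.39) and pdk4.S fell from 105 to 44.2 (-1.25 ± 0.33). Where copies are near-identical, the authors' counting may have split reads between them, which makes the value of a single copy uncertain.

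**Figure D5:**
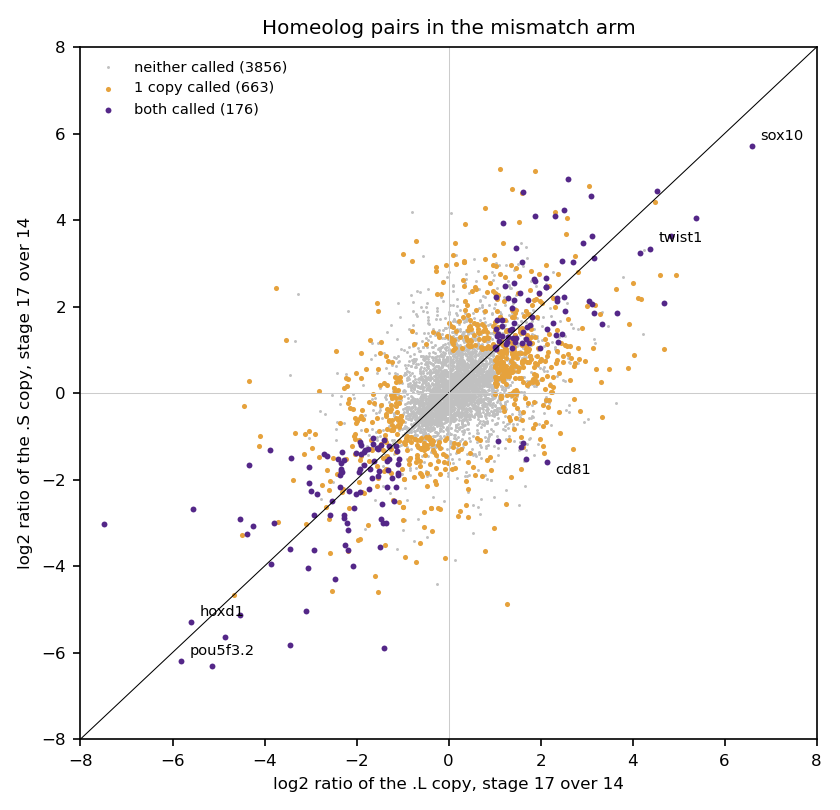
Each point is a pair of homeologs, with the log2 ratio of the .L copy on the x axis and of the .S copy on the y axis, and the line marks equal ratios. Purple points have both copies called (176), orange points 1 copy (663), and sox10 and hoxd1 lie at opposite ends of the line while cd81 lies in the lower right quadrant.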

How the data were processed

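RNA sequencing tables of 2 comparisons, 1 per stage, were used. The authors deposited, per the file headers, a mean normalised count per gene (a signal scaled within a table), a log2 fold change and its error, a Wald score, and a p-value before and after adjustment. STAR 2.7.3a and DESeq2 are named in the submitters' processing notes without role or settings, and the kit was unstranded per the labels. The genome build and annotation are not given in the sources used here. Overlapping and antisense genes cannot be told apart without strand. The deposited scores and p-values were not used.

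The mismatch (denominator) mean was solved from the mean count and the fold change, with 3 samples per arm. Each stage was scaled by its sum over genes in both tables. A dispersion per gene and stage, shared by the arms, was solved from the deposited standard error by the negative binomial variance, with arm means of at least 0.5, and each arm's error was taken from it. Errors of the stages were added in quadrature and tested with a two-sided normal test (Python 3.11.15, SciPy 1.17.1). The difference between the arms is the difference of the deposited log2 fold changes of the stages. The procedure was run on simulated data with known stage changes. The arms shared a dispersion there as well, so the run does not test that assumption. Symbols of 99.9% of genes matched RefSeq.

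Members, gene lists and tests were chosen with earlier results of these data known. Genes were named by a rule: the 10 largest rises and falls above the floor that kept their direction in the other arm and under median scaling, up to 4 called genes of lowest p per list (36 lists), and the copies of 15 set genes. Symbols starting with LOC were left out of the largest rises and falls. Some genes that the rule names are not reported here. Named after their values were seen were ets1.L, msx1.S, irx3.L, egr2.L, hoxb1.S, hoxc3.L, axin2.L, wnt8a.L, lef1.L, aldh1a2.L, flrt3.L, notch2.L, dll1.L, sema3d.L, ncam1.L, ncam1.S, neurod1.L, COX1, ccna1.L, mrps9.L and the homeolog pairs called in opposite directions. No sequence is shown, and coordinates are not given because the build is not stated.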

Additional observations from a re-analysis of the deposited data

Results flagged for a closer look

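The stage change differed between the arms for 46 of the 129 genes named in the report. In 3 of these, sox10.S, tp63.L and pou5f3.2.L, an arm was at the floor, and no size is given. The test compared the deposited log2 fold changes of the stages, with Benjamini-Hochberg adjusted p-values over all genes past the filter from 1.79e-12 to 0.0483. Across the 15157 genes past the filter, arms at the floor included, 248 had an adjusted p under 0.05, of which 30 rose and 139 fell in the arm taken as mismatch. Of the 129 named genes 115 were called in the mismatch arm, many of them picked for large changes or low p. Such picking favours a difference from the other arm, so 46 of 129 is no measure of its frequency. Values are the deposited log2 fold change at stage 17 minus that at stage 14, which is the stage change of the other arm minus that of the mismatch arm, with SEs from 0.36 (fgfr4.L) to 1.26 (hoxb4.S). They exceed the difference of the log2 ratios of the report by 0.0852, because those ratios were scaled by each arm's own total. Which arm received which morpholino does not alter the size of a difference, only its sign. In 39 of the other 43 genes the difference was above 0. Of these 43 genes 37 had a ratio below 0 in the mismatch arm, and the choice of genes also favoured this sign. Among crest specifiers the other arm exceeded the mismatch arm by 2.23 for snai2.L, 2.69 for sox9.L and 2.44 for sox9.S. Among border genes the excess was 1.67 for pax3.L, 1.74 for pax3.S, 1.72 for zic1.L, 3.1 for zic1.S, 2.90 for zic2.S and 2.7 for msx1.S. Among immature neural genes it was 4.24 for sox2.L, 3.92 for sox3.L, 2.42 for sox3.S and 4.32 for irx3.L. Among pluripotency genes it was 2.45 for pou5f3.1.L, 2.78 for pou5f3.1.S, 5.07 for pou5f3.2.S and 3.99 for ventx2.2.S. For regional and hox genes it was 3.14 for meis3.L, 4.50 for hoxd1.L, 4.22 for hoxd1.S, 5.38 for hoxb4.S and 2.78 for hoxb1.S. For Wnt pathway genes it was 3.73 for sfrp1.S, 2.89 for fzd10.S, 1.87 for axin2.L and 2.52 for wnt8a.L. For FGF, Notch, BMP and Hedgehog genes it was 4.41 for fgf8.S, 5.48 for fgf3.L, 2.27 for fgfr4.L, 3.09 for hes1.L, 3.19 for cer1.S and 1.59 for cdon.S. For retinoic acid genes it was 5.72 for dhrs3.L, 2.95 for cyp26a1.S and 2.16 for crabp2.L. For other genes it was 5.08 for plekhg4.S, 1.35 for ccne2.S, 2.07 for pfkfb3.L and 1.83 for pmel.S. In 4 genes the difference was below 0, with -4.60 for ntn1.L, -4.15 for aplnr.S, -1.74 for ND5 and -2.18 for ND4. The guidance gene ntn1.L rose in the mismatch arm (4.16) and was not called in the other (-0.53), and the apelin receptor gene aplnr.S likewise (4.17 and -0.06). The cause of these differences was not tested.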

How the results depend on the processing

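Alternatives to the arm, scale, filter, error and thresholds were tried 1 at a time. With the other arm taken as mismatch, 525 genes were called, 451 rising and 74 falling. Averaging both arms called 1121, with 779 rises and 342 falls. An adjusted p under 0.01 left 928 calls, 447 of them rises, and a log2 ratio of 2 or more left 615, with 323 rises and 292 falls. Other filters, totals, the deposited error divided by the square root of 2, summed homeologs and no limit on the ratio gave 1219 to 1860 calls, and median scaling gave 1546. Of the 115 called genes named in the report, 30 were called in the same direction in the other arm, 71 in the average of both arms and 111 under median scaling. List medians that changed sign with the other arm taken as mismatch were those of neural plate border (0.14), midbrain and hindbrain (0.0584), hatching and cement gland (0.66), hox genes (1.91), axial mesoderm and floor plate (0.53), endoderm (0.53), blood and myeloid (-0.54), retinoic acid pathway (0.0465), Hedgehog pathway (0.31), p53 response (-0.43), serine synthesis and stress response (-0.0135), mitochondrially encoded genes (-0.22) and cholesterol synthesis (-0.0598). List medians that changed sign under scaling by the median ratio were those of epidermis (-0.0509), mesoderm and muscle (-0.0207), BMP and TGF-beta pathway (-0.15), FGF pathway (-0.16) and p53 response (-0.18). List medians that changed sign at a mean of 50 or more were those of ionocytes (-0.0414), mesoderm and muscle (-2.82), axial mesoderm and floor plate (0.0556), BMP and TGF-beta pathway (-0.13) and FGF pathway (-0.48). List medians that changed sign at 10 or more in either table were those of FGF pathway (-0.0533) and Hedgehog pathway (0.00637). Under the filters on the mean count, list medians that kept their sign and moved by more than their members' median SE were those of neuronal differentiation (0.0475), hox genes (-1.74) and endoderm (-3.96) at a mean of 50 or more, and of mesoderm and muscle (1.69) and of hemoglobin and larval transport (2.78) at 10 or more in either table. Genes whose log2 ratio changed sign with the other arm taken as mismatch were foxd3.S (3.40), sox9.S (2.30), zic1.L (0.14), pax3.L (0.0448), msx1.S (0.62), tfap2a.L (0.51), tfap2a.S (0.67), meis3.L (0.0701), hoxb4.S (0.50), hoxb1.S (0.95), axin2.L (0.0302), fgfr4.L (0.27), fgf3.L (0.25), dhrs3.L (0.076), aldh1a2.L (-0.56), cer1.S (0.0268), lef1.L (-0.61), cdh1.L (1.84), cdh1.S (0.40), lhx1.L (1.64), ntn1.L (-0.53), aplnr.S (-0.0576), ND5 (-0.11), ND4 (-0.23), COX1 (-0.58), pdk4.L (-0.00987) and srebf1.S (-0.31). Genes whose log2 ratio changed sign in the average of both arms were foxd3.S (0.53), sox9.S (0.46), tfap2a.L (0.11), tfap2a.S (0.18) and COX1 (-0.31). The gene whose log2 ratio changed sign under scaling by the median ratio was COX1 (-0.0275). The cause was not tested. No paired analysis was possible because the tables hold no values per sample and the titles share no replicate numbers between groups. Leaving out single replicates was not run for the same reason. Depth per library is unknown, and an arm mean near the floor carries a wide error.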
